A study of Sus scrofa with 12 samples.

Results

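The set described here holds 5 genes that make, convert or sense corticosteroids, namely CYP21A2, HSD11B1, HSD11B2, NR3C1 and NR3C2. They were chosen by symbol, as the rows of the coding-gene table that carry these names, and 5 of the 21674 coding genes in the table were taken. Testis RNA came from Hezuo (HZ) boars, a small Chinese plateau breed that matures early, and from Landrace (LC) boars, each at 30 and at 120 days of age. The 4 groups of 3 libraries each are Ha (HZ, 30 days), Hb (HZ, 120 days), La (LC, 30 days) and Lb (LC, 120 days), with no treatment in any group. According to the study's methods the boars were castrated for sampling and had been kept under shared conditions. A library was made from whole testis tissue, so each value is an average over all cell types of the organ. The estimated counts of a library summed to between 22538417 and 23758931 in Ha, 17165519 and 22707568 in Hb, 18523274 and 23563949 in La, and 18998959 and 23253496 in Lb.

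Corticosteroids are steroid hormones made mainly in the adrenal cortex, where 21-hydroxylase turns progesterone and its 17-hydroxylated form into precursors that 11-beta-hydroxylase then completes. In target tissues the 11-beta-hydroxysteroid dehydrogenases set how much active glucocorticoid reaches the receptors, with type 1 mostly regenerating the active hormone and type 2 inactivating it. The glucocorticoid and mineralocorticoid receptors are nuclear receptors that bind these steroids and act on transcription, and in the testis Leydig cells are known to carry glucocorticoid receptors and 11-beta-hydroxysteroid dehydrogenases.

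Some libraries stood apart from their group. The 7 Leydig cell markers (CYP17A1, HSD3B1, CYP11A1, STAR, LHCGR, INSL3 and HSD17B3, with 7 of 7 in the table) had summed levels of 10090, 9586 and 8750 CPM, counts scaled to library size, in Ha replicates 1 to 3. The sums were 4066, 331.4 and 267.9 CPM in Hb, 13680, 9326 and 11210 CPM in La, and 4922, 7417 and 3086 CPM in Lb. Replicate 1 of Hb therefore held far more Leydig marker RNA than replicates 2 and 3 of its group. CYP17A1 was the most abundant of these markers over the 12 libraries, but INSL3 (2081 CPM) exceeded it (1444 CPM) in Hb replicate 1, and HSD17B3 (137.6 and 151.2 CPM) exceeded it (21.17 and 19.32 CPM) in Hb replicates 2 and 3. No marker of the list was at 0 in any library. Replicate 2 of Lb had the highest Leydig sum of its group, and was set apart after the members' values were seen, since it also held the highest CYP21A2 and HSD11B2 levels of its group. For the members and LOC110260194, results that leaving out either of these libraries moved by more than 1.5 times in fold are given below with and without it.

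**Figure D1:**
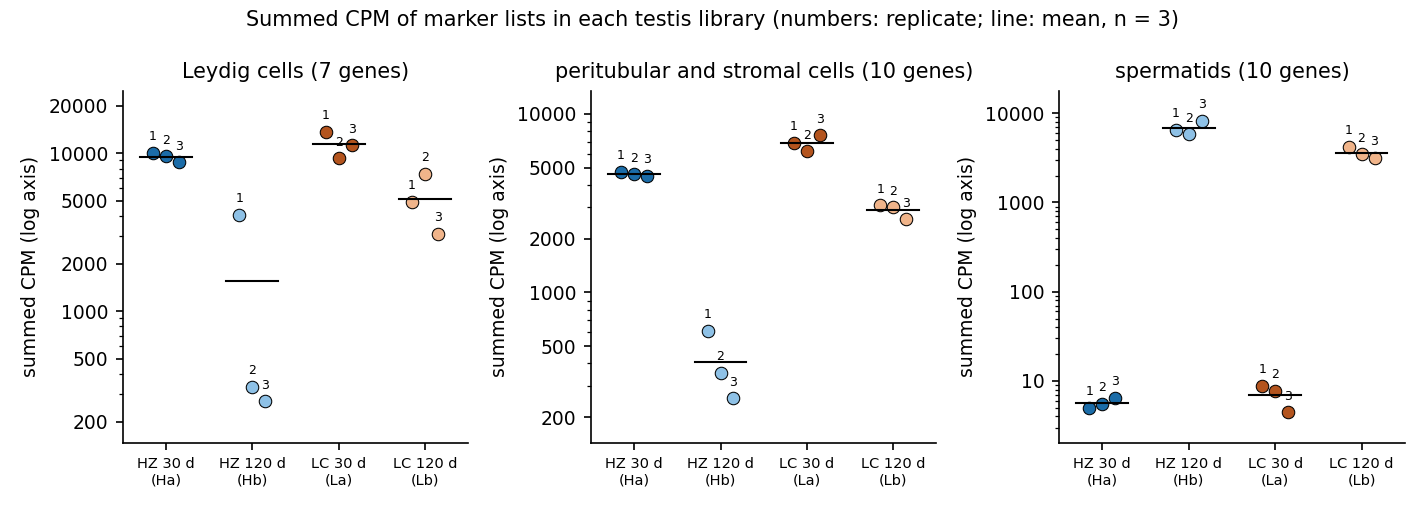
Summed CPM (log axis) of the marker lists of Leydig cells, peritubular and stromal cells, and spermatids in each library, with points for replicates and a line for the mean of 3. Leydig sums lie at 4066, 331.4 and 267.9 CPM in the 3 Hb libraries, and the spermatid sums of all 30-day libraries lie under those of all 120-day libraries.

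Other cell types also moved with age and breed in the summed markers. The peritubular and stromal list (10 of 10 in the table, led by COL3A1) summed to a mean of 4609 CPM in Ha, 405.6 CPM in Hb, 6900 CPM in La and 2887 CPM in Lb (n = 3 each). In single libraries it ranged from 255.3 to 607.6 CPM in Hb and from 2571 to 3084 CPM in Lb, so these groups did not overlap. Of its 10 genes, 8 were called lower and 0 higher in Hb than in Ha, and 5 lower and 1 higher in Lb than in La. COL3A1 alone had means of 4198 CPM in La and 1476 CPM in Lb. ACTA2 was the gene called higher in LC, from a mean of 107.2 to 282.2 CPM. The means of MYH11 (8.464 to 10.55 CPM) and DES (22.55 to 28.85 CPM) also rose there, without a call. The endothelial list (5 of 5, led by VWF) had means of 655.4, 221.2, 726.3 and 363.7 CPM in Ha, Hb, La and Lb, and the macrophage list (5 of 5, led by CSF1R) had means of 110.5, 16.08, 114.6 and 31.69 CPM in that order. The Sertoli list (8 of 8, led by INHA) had means of 1381, 483.7, 2923 and 666 CPM. Much of its change came from INHA, with means of 511, 126.1, 1455 and 171.7 CPM, and AMH, with 175.9, 5.847, 686.8 and 8.289 CPM. With age, 4 of the 8 genes were called lower and 4 were not called, in HZ as in LC. The sums of the germ cell lists were higher at 120 days. The spermatid list (10 of 10, led by PRM1) had means of 5.667 CPM in Ha and 7.006 CPM in La against 6848 CPM in Hb and 3600 CPM in Lb, with 5 of its genes at 0 counts in at least 1 library. The spermatocyte list (8 of 8, led by PIWIL1) had means of 29.1, 703.4, 14.3 and 493.9 CPM, and the spermatogonia list (11 of 11, led by DDX4) 345.7, 831.4, 225.3 and 665.2 CPM. The spermatogonia sum at 120 days was carried by DDX4, since 6 of 11 genes of this list were called lower and 3 higher in Hb than in Ha, and 5 lower and 4 higher in Lb than in La. Of all genes tested, 23.2% were called lower and 28.2% higher in Hb than in Ha, and 20.1% and 27.5% in Lb than in La. In bulk tissue, fewer cells of a type and less RNA per cell cannot be told apart, and the part of these lists in the results on the corticosteroid genes was not tested.

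Each comparison was tested across all coding genes with edgeR's quasi-likelihood test, and fold changes are the second group over the first. A call needed a p under 0.05 after Benjamini-Hochberg adjustment together with an absolute log2 fold change over 1. The adjusted p values below all come from this test. For a gene measured in 3 libraries per group, exact permutation cannot reach a p under 0.1, so these adjusted p values rest on the variance model that edgeR fits across genes. Ha vs Hb shares its libraries with Ha vs La and Hb vs Lb, and the same holds for the other pairs, so the comparisons are not independent.

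All 5 members passed the filter on low counts in every comparison. In Ha vs Hb, 3 of 5 members were called lower in Hb, where 23.2% of the 16548 genes tested were called lower, 28.2% higher and 51.4% in either direction. Their median log2 fold change was -1.32, beside -0.02 over all genes tested. In La vs Lb, 1 of 5 was called lower in Lb, against 20.1% of 16637 genes lower, 27.5% higher and 47.6% in either direction, with a median of -0.81 beside 0.01. In Ha vs La, 1 of 5 was called higher in La and 1 lower, against 3.60% of 15648 genes higher, 4.01% lower and 7.62% in either direction, with a median of 0.005 beside 0.002. In Hb vs Lb, 1 of 5 was called higher in Lb, against 2.65% of 16311 genes higher, 1.20% lower and 3.85% in either direction, with a median of 0.52 beside 0.004. The interaction of breed and age, which tests whether the change with age differed between the breeds, was called for 2 of 5 members and for 5.14% of 17332 genes.

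CYP21A2 encodes steroid 21-hydroxylase (chromosome 7, 24086138 to 24089364, Sscrofa11.1). Its level was 14.56, 11.17 and 13.33 FPKM, the scale that allows for gene length, in replicates 1 to 3 of Ha. It was 0.23, 0.06 and 0.02 FPKM in Hb, from estimated counts of 16, 3 and 1, and 4.07, 2.95 and 3.57 FPKM in La. In Lb it was 0.20, 3.65 and 0.87 FPKM, from 11, 256 and 53 counts. Thus all Ha libraries lay above all others, all Hb libraries except replicate 1 lay below all others, and the Lb libraries ran from below the highest Hb library up into the range of La. The group means were 13.0 ± 1.72 FPKM in Ha, 3.53 ± 0.56 in La, 1.57 ± 1.83 in Lb and 0.10 ± 0.11 in Hb (SD, n = 3 each), and Lb overlapped with both La and Hb.

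With age, CYP21A2 fell by 6.42 on the log2 scale in HZ (SE 0.65, 95% confidence interval -7.94 to -4.90, edgeR adjusted p = 0.00012), and the 3 Hb libraries were below the 3 Ha libraries. Without Hb replicate 1 the log2 fold change was -8.15 (edgeR adjusted p = 1.13e-05). In LC the log2 fold change was -0.81 (interval -2.67 to 1.04, edgeR adjusted p = 0.39), and the groups overlapped. The LC value hung on replicate 2 of Lb, since without it the log2 fold change was -2.48 and was called (edgeR adjusted p = 0.00767). At 30 days CYP21A2 was lower in La than in Ha, with a log2 fold change of -1.85 (SE 0.15, edgeR adjusted p = 0.000495) and no overlap, although the call was lost when all 12 libraries were fitted together (edgeR adjusted p = 0.154). At 120 days the log2 fold change of Lb over Hb was 3.79 (SE 1.25, interval 0.91 to 6.67) and did not pass (edgeR adjusted p = 0.112). It was 5.50 without Hb replicate 1 (edgeR adjusted p = 0.0951) and 2.17 without Lb replicate 2 (edgeR adjusted p = 0.352), while DESeq2 called it at 3.80 (DESeq2 adjusted p = 0.00568) and the joint edgeR fit of 12 libraries at 3.75 (adjusted p = 0.0273). At counts of 1 to 16 in Hb, the level in that group is known only roughly.

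The change of CYP21A2 with age differed between the breeds, with an interaction of 5.60 on the log2 scale (SE 1.26, edgeR adjusted p = 0.0255). It was 7.35 without Hb replicate 1 (edgeR adjusted p = 0.0165) and 3.93 without Lb replicate 2 (edgeR adjusted p = 0.0461). The call was lost without Ha replicate 1, Hb replicate 3 or any of the La replicates 1, 2 and 3, where the interaction lay between 5.21 and 5.71 with edgeR adjusted p between 0.0518 and 0.0628. The Leydig marker sum moved in the same direction with age, so the level was also set against it. CYP21A2 stood at 3.527, 2.954 and 3.843 CPM per 1000 CPM of Leydig markers in Ha. The ratio was 0.2281, 0.4204 and 0.2461 in Hb, 0.76, 0.8674 and 0.7621 in La, and 0.1034, 1.625 and 0.8816 in Lb. All Ha libraries were therefore highest on this scale too, and Ha and Hb did not overlap. The ratio of Hb replicate 1 was the lowest in Hb and close to that of replicate 3. The Lb ratios spread from below every Hb library to above every La library. In Hb replicates 2 and 3, HSD17B3 alone gave 137.6 of 331.4 and 151.2 of 267.9 CPM of the Leydig sum. This bears on every ratio to that sum, and CYP21A2 had 3 and 1 counts there. Against STAR alone, the ratio of Hb replicate 2 (0.1393 to 6.687 CPM) lay above that of every Ha library. The separation of Ha and Hb thus depends on the markers summed.

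**Figure D2:**
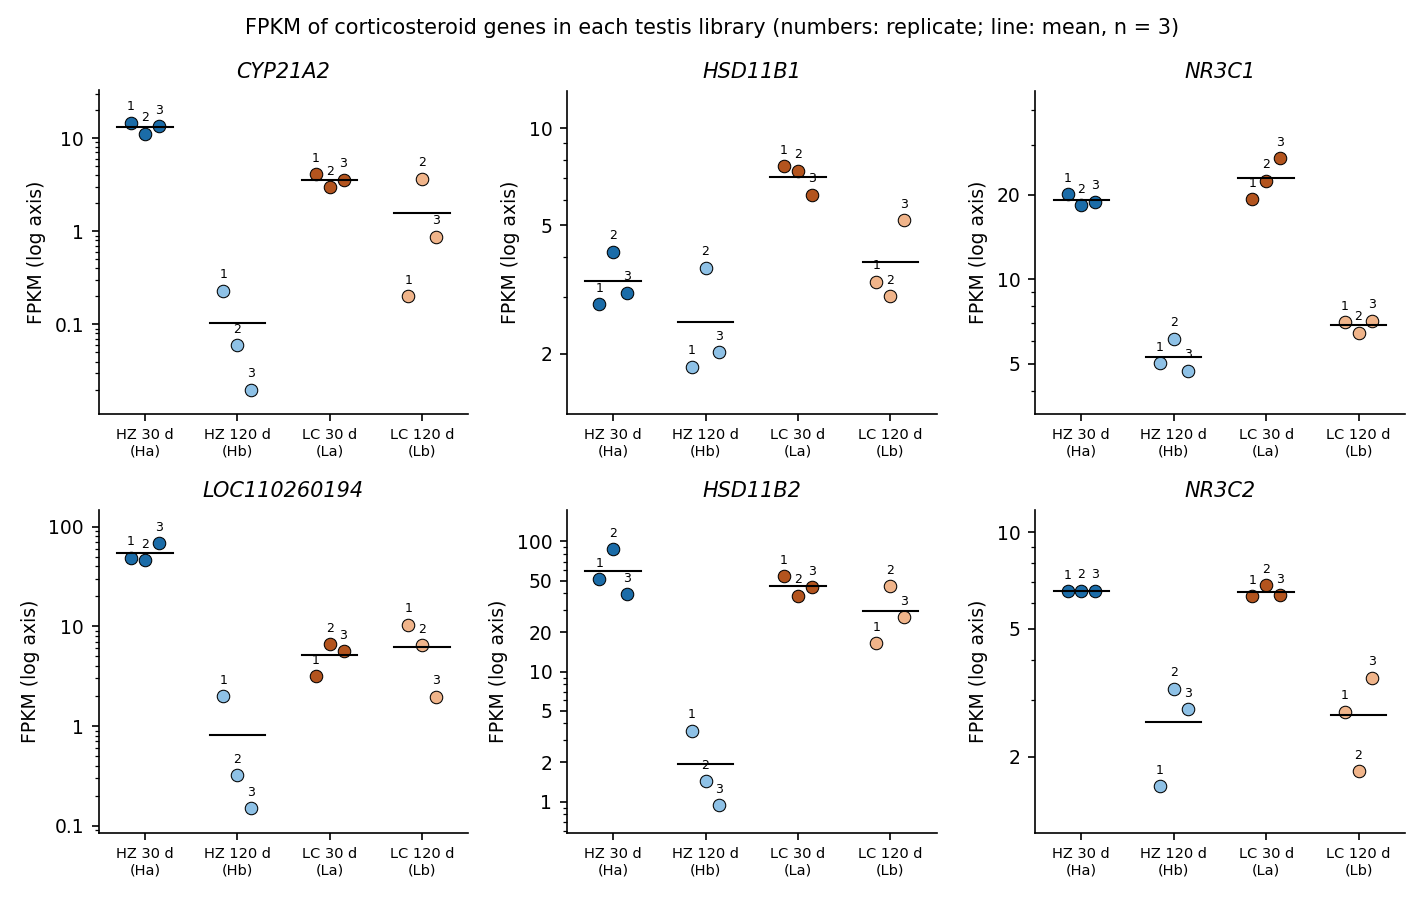
FPKM (log axis) of the 5 corticosteroid genes and of LOC110260194 in each of the 12 testis libraries, with points for replicates and a line for the mean of 3. HSD11B2 lies lowest in the Hb libraries, at most 3.5 FPKM, CYP21A2 lies at most at 0.23 FPKM there and at 0.20 FPKM in Lb replicate 1, and NR3C1 lies between 4.71 and 7.11 FPKM in all 120-day libraries.

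In the adrenal cortex the step after 21-hydroxylation is carried out by 11-beta-hydroxylase, the product of CYP11B1, and the last steps to aldosterone by CYP11B2. Neither symbol is in the coding-gene table. A gene whose description names cytochrome P450 11B1, LOC110260194 (chromosome 4, 1365725 to 1373138), was taken in its place after its values were seen. Its level was 48.64, 46.15 and 68.06 FPKM in Ha, 1.99, 0.32 and 0.15 FPKM in Hb, 3.17, 6.61 and 5.64 FPKM in La, and 10.35, 6.45 and 1.96 FPKM in Lb. As for CYP21A2, the Ha libraries were above all others and Hb replicates 2 and 3 below all others, and La and Lb overlapped. Set against the Leydig markers it stood at 21.18, 21.05 and 34.28 CPM per 1000 CPM in Ha, 3.222, 5.605 and 3.446 in Hb, 1.052, 3.184 and 2.233 in La, and 12, 4.982 and 3.26 in Lb. On this scale Ha was again highest, but all La libraries lay below all Hb libraries. The log2 fold change was -5.49 in Ha vs Hb (SE 0.91, edgeR adjusted p = 0.00132) and -3.375 in Ha vs La (SE 0.28, edgeR adjusted p = 0.000587), both without overlap, and the former was -7.36 without Hb replicate 1 (edgeR adjusted p = 2.14e-05). It was 0.63 in La vs Lb (edgeR adjusted p = 0.317) and 2.80 in Hb vs Lb (edgeR adjusted p = 0.124), and without Hb replicate 1 the latter was 4.64 and called (edgeR adjusted p = 0.0318), as it was at 2.74 with all 12 libraries in one fit (edgeR adjusted p = 0.0391), and without Lb replicate 1 it was 2.21 (edgeR adjusted p = 0.276). Without Lb replicate 3 the log2 fold change in La vs Lb was 1.07 and called (edgeR adjusted p = 0.0222). The interaction was 6.12 (SE 1.12, edgeR adjusted p = 0.0118), and was called in every alternative run for it, with 8.01 without Hb replicate 1 and 5.53 without Lb replicate 1.

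The defining markers of adrenal cortex cells other than CYP11B1 and CYP11B2 gave a mixed picture. MC2R, the receptor for adrenocorticotropic hormone, had between 0 and 14 estimated counts in each library and was not tested. MRAP, the accessory protein that MC2R needs, had means of 16.7 FPKM in Ha, 1.79 in Hb, 24.6 in La and 4.66 in Lb. Its level at 30 days was thus higher in La than in Ha, unlike those of CYP21A2 and LOC110260194, by a log2 fold change of 0.59 that was not called. The list had 2 of 4 symbols in the table, and whether cells of an adrenal type contributed was not tested.

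Enzymes upstream of 21-hydroxylation are shared with androgen synthesis, and the fixed synthesis list holds them with their supply and regulation. Of the 10 tested genes of this list (STAR, CYP11A1, HSD3B1, CYP17A1, FDX1, FDXR, POR, CYB5A, NR5A1 and H6PD), 9 were called lower in Hb than in Ha and 9 lower in Lb than in La, against 23.2% and 20.1% of all genes tested, with median log2 fold changes of -2.614 and -1.555. The exceptions were CYP17A1 in HZ, with a log2 fold change of -2.83 (SE 1.53, edgeR adjusted p = 0.134) that was called without Hb replicate 1 and on both FPKM scales, and HSD3B1 in LC, with a log2 fold change of -0.69 that was also called on both FPKM scales. In LC, CYP11A1 and CYP17A1 lost their calls with all 12 libraries in one fit, and CYP17A1 also without Lb replicate 3. STAR, which carries cholesterol into mitochondria, had the largest fall, by 5.69 in HZ (SE 1.25, edgeR adjusted p = 0.00496) and 2.96 in LC (SE 0.46, edgeR adjusted p = 0.000498) on the log2 scale. Its Hb libraries had 28.21, 1.72 and 1.83 FPKM, so the size of the HZ fall depended on replicate 1. The HZ call held in 13 of 13 alternatives. CYP17A1 had the highest mean FPKM of the list over the 12 libraries, with group means of 1729 in Ha, 2610 in La, 917.3 in Lb and 160.8 in Hb, where its libraries had 467.83, 7.92 and 6.63 FPKM.

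Between the breeds, edgeR called 0 of these 10 genes at 30 days and 0 at 120 days, against 7.62% and 3.85% of all genes. At an unadjusted p under 0.05 there were 6 and 5, and DESeq2 called 0 and 2. Without Hb replicate 1, 6 of 10 were called in Hb vs Lb, against 622 of 16672 genes, an alternative added after the data were seen. STAR had a log2 fold change of -0.40 in Ha vs La (edgeR adjusted p = 0.161) and CYP17A1 of 0.625 (edgeR adjusted p = 0.0173), which is under the fold threshold.

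HSD11B2 encodes the type 2 dehydrogenase that inactivates glucocorticoid (chromosome 6, 28084087 to 28089256). It was the most abundant member in every group but Hb, with 51.37, 87.38 and 39.23 FPKM in Ha and 53.98, 38.22 and 44.36 FPKM in La. At 120 days it had 3.5, 1.43 and 0.94 FPKM in Hb and 16.57, 45.16 and 26.09 FPKM in Lb. All Hb libraries lay far below all others, while the Lb libraries overlapped with La through replicate 2. Its mean level ranked above 96.2% of the 21674 genes in Ha, 95.2% in La and 90.3% in Lb, and above 52.5% in Hb.

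HSD11B2 fell with age in HZ by 4.39 on the log2 scale (SE 0.57, interval -5.73 to -3.04, edgeR adjusted p = 0.000404), with all 3 Hb libraries below all 3 Ha libraries, and by 5.19 without Hb replicate 1 (edgeR adjusted p = 0.00015). In LC the log2 fold change was -0.32 (interval -1.07 to 0.43, edgeR adjusted p = 0.405), and -0.83 without Lb replicate 2 (edgeR adjusted p = 0.00938), which is under the fold threshold. At 30 days the breeds overlapped, with a log2 fold change of -0.35 (interval -0.99 to 0.29, edgeR adjusted p = 0.397) that changed sign to 0.04 without Ha replicate 2. At 120 days HSD11B2 was higher in Lb than in Hb, by 3.765 on the log2 scale (SE 0.58, interval 2.43 to 5.10, edgeR adjusted p = 0.0182), in 3 of 3 libraries. The value was 4.54 without Hb replicate 1 (edgeR adjusted p = 0.00837). The call was lost without Hb replicate 3 (3.44, edgeR adjusted p = 0.0544), without Lb replicate 2 (3.28, edgeR adjusted p = 0.0688) and without Lb replicate 3 (3.87, edgeR adjusted p = 0.0502). The interaction of breed and age was 4.06 (SE 0.69, edgeR adjusted p = 0.00914). It was called in every alternative run for it, and ranged from 3.55 to 4.88 when libraries were left out 1 at a time, with the highest value without Hb replicate 1.

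HSD11B2 was also set against the Leydig markers. It stood at 8.355, 14.89 and 7.382 CPM per 1000 CPM of Leydig markers in Ha and at 2.124, 9.195 and 8.177 in Hb. The ratio was 6.688, 6.882 and 6.568 in La and 7.176, 13.03 and 16.24 in Lb. Hb replicates 2 and 3 lay within the range of Ha, and Hb replicate 1, the library rich in Leydig markers, lay lowest of all 12 libraries. All 3 Lb ratios lay above all 3 La ratios. This ratio was described and not tested.

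HSD11B1 encodes the type 1 enzyme, which mainly regenerates active glucocorticoid (chromosome 9, 133231451 to 133278396). Its level was 2.84, 4.14 and 3.09 FPKM in Ha, 1.82, 3.69 and 2.02 FPKM in Hb, 7.62, 7.38 and 6.23 FPKM in La, and 3.34, 3.01 and 5.19 FPKM in Lb. All La libraries lay above all others, and the remaining groups overlapped with each other. It was higher in La than in Ha by 1.10 on the log2 scale (SE 0.19, interval 0.67 to 1.53, edgeR adjusted p = 0.00706), in 3 of 3 libraries. This value lies close to the fold threshold, and the call was lost without Ha replicate 1 (edgeR adjusted p = 0.0272, with the log2 fold change just under 1) and on log2(FPKM + 1) (0.90, limma adjusted p = 0.0056). In La vs Lb the log2 fold change of -0.59 had an edgeR adjusted p of 0.0461 and no overlap, but stayed under the fold threshold. The log2 fold changes were 0.02 in Ha vs Hb (interval -0.70 to 0.74, edgeR adjusted p = 0.964) and 0.52 in Hb vs Lb (interval -0.26 to 1.29, edgeR adjusted p = 0.364), and the interaction of -0.63 was not called (edgeR adjusted p = 0.344). The sign in Ha vs Hb was negative on the FPKM scale.

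The RNA levels of both enzymes were also set against each other as a ratio of FPKM, in which the scaling of a library cancels. This ratio is of whole-tissue RNA, and enzyme protein and activity were not analysed here. HSD11B2 over HSD11B1 was 18.09, 21.11 and 12.7 in Ha, 1.923, 0.3875 and 0.4653 in Hb, 7.084, 5.179 and 7.12 in La, and 4.961, 15 and 5.027 in Lb. In Ha all 3 libraries exceeded those of La, Hb was lowest throughout, and Hb replicates 2 and 3 were the libraries in which HSD11B1 exceeded HSD11B2. The means were 17.3 ± 4.26 in Ha, 8.33 ± 5.78 in Lb, 6.46 ± 1.11 in La and 0.93 ± 0.87 in Hb (SD, n = 3 each), and Lb overlapped with both Ha and La. H6PD, which supplies the cofactor that the type 1 enzyme needs to regenerate hormone, fell with age by 1.83 in HZ (SE 0.25, edgeR adjusted p = 0.000465) and by 1.70 in LC (SE 0.10, edgeR adjusted p = 2.24e-06) on the log2 scale, without overlap.

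**Figure D3:**
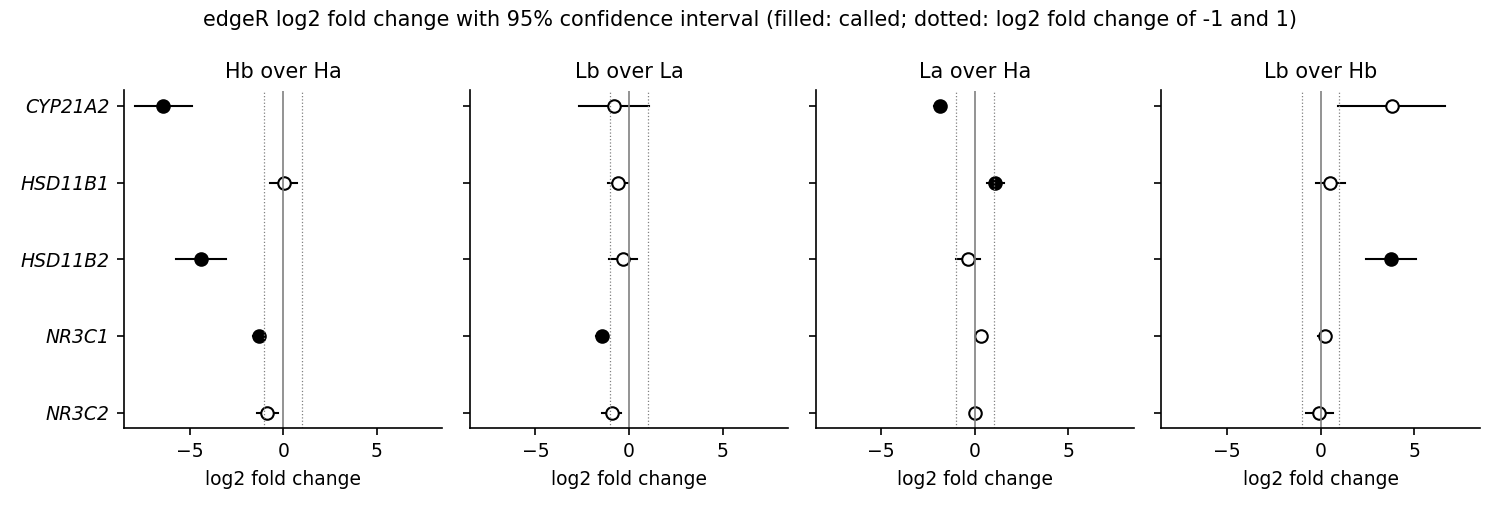
Log2 fold changes of the 5 corticosteroid genes in each comparison with their 95% confidence intervals from edgeR, second group over first, filled where called. CYP21A2 and HSD11B2 lie at -6.42 and -4.39 in Hb over Ha and at -0.81 and -0.32 in Lb over La.

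NR3C1 encodes the glucocorticoid receptor (chromosome 2, 144822937 to 144956451). Its level was 20.11, 18.33 and 18.9 FPKM in Ha and 19.3, 22.42 and 26.99 FPKM in La. At 120 days it was 5.01, 6.13 and 4.71 FPKM in Hb and 7.03, 6.44 and 7.11 FPKM in Lb. Every 30-day library lay above every 120-day library, and the replicates of a group lay close together. NR3C1 fell with age by 1.32 on the log2 scale in HZ (SE 0.12, interval -1.60 to -1.04, edgeR adjusted p = 7.19e-05) and by 1.44 in LC (SE 0.13, interval -1.75 to -1.13, edgeR adjusted p = 2.62e-05). It was called in both breeds under every alternative run. The log2 fold change between breeds was 0.31 at 30 days (interval 0.04 to 0.58, edgeR adjusted p = 0.0956) and 0.22 at 120 days (interval -0.13 to 0.56, edgeR adjusted p = 0.383). The interaction of -0.14 was not called (interval -0.52 to 0.24, edgeR adjusted p = 0.677).

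NR3C2 encodes the mineralocorticoid receptor, which also binds glucocorticoid (chromosome 8, 80303172 to 80669050). Its level was 6.55, 6.58 and 6.56 FPKM in Ha, 1.62, 3.26 and 2.81 FPKM in Hb, 6.31, 6.83 and 6.36 FPKM in La, and 2.76, 1.8 and 3.52 FPKM in Lb. Again every 30-day library lay above every 120-day library, and the 120-day libraries of the breeds overlapped. The log2 fold change with age was -0.84 in HZ (SE 0.23, edgeR adjusted p = 0.0132) and -0.93 in LC (SE 0.22, edgeR adjusted p = 0.0053), under the fold threshold in both. Whether NR3C2 was called depended on the scale. On log2(FPKM + 1) the log2 fold change was -1.12 in HZ (limma adjusted p = 0.0015) and -1.05 in LC (limma adjusted p = 0.000933), and both were called. It was also called without Hb replicate 2 (-1.03) in HZ, and without Lb replicate 1 (edgeR adjusted p = 0.0115) or Lb replicate 3 (-1.10) in LC. Between breeds the log2 fold changes were 0.005 at 30 days (interval -0.20 to 0.21, edgeR adjusted p = 0.976) and -0.06 at 120 days (interval -0.80 to 0.67, edgeR adjusted p = 0.921).

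FPKM and TMM scaling place the median gene differently with age, which bears on every value near a threshold. On log2(FPKM + 0.1) the median gene moved by -0.47 from Ha to Hb and by -0.27 from La to Lb, against -0.02 and 0.01 with TMM, and in Hb vs Lb by 0.12 against 0.004. On log2(FPKM + 1) it moved by -0.28 from Ha to Hb and -0.16 from La to Lb. The share of called genes that were higher in Hb than in Ha was 54.8% with TMM and 38.5% on log2(FPKM + 0.1), that higher in Lb than in La 57.7% and 46.1%, and that higher in Lb than in Hb 68.8% and 80%. On log2(FPKM + 1) these shares were 42.3%, 52.2% and 79.7% in the same order. NR3C1, HSD11B2 and CYP21A2 were called lower in Hb than in Ha under each scaling. The ratio of NR3C1 to NR3C2 in FPKM does not depend on this. It was 2.91 ± 0.14 in Ha, 2.22 ± 0.77 in Hb, 3.53 ± 0.63 in La and 2.72 ± 0.79 in Lb (SD, n = 3 each). All 3 Ha libraries lay within the range of Hb and of Lb, La and Lb overlapped, and differences in this ratio were not tested.

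Proteins that chaperone the receptors or act with them made up a list of 15 genes. In Ha vs Hb, 3 of 15 tested were called higher and 4 lower, and in La vs Lb 3 of 14 higher and 1 lower. Of all genes tested, 28.2% were higher and 23.2% lower in the former and 27.5% and 20.1% in the latter. FKBP4, a co-chaperone of steroid receptors, was among those higher with age, by 2.30 in HZ (SE 0.15, edgeR adjusted p = 1.77e-05) and 2.49 in LC (SE 0.14, edgeR adjusted p = 1.21e-06) on the log2 scale. HSP90AA1, the chaperone with the highest mean FPKM of the list over the 12 libraries, was higher with age by 1.62 in HZ (edgeR adjusted p = 6.08e-05) and 1.625 in LC (edgeR adjusted p = 4.32e-06). FKBP5, the co-chaperone that glucocorticoids are known to induce, had log2 fold changes of 0.03 and 0.26, which were not called. SERPINA6, which encodes the corticosteroid-binding globulin of blood, had 18, 15 and 21 estimated counts in Ha, 4, 0 and 0 in Hb, 21, 7 and 11 in La, and 2, 2 and 0 in Lb, too few to place it within the 120-day groups.

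Genes that glucocorticoids are known to induce in other tissues were counted as a further list. Of 10 tested, 3 were called lower in Hb than in Ha (TSC22D3, NFKBIA and CEBPD) and 2 lower in Lb than in La (TSC22D3 and CEBPD), and none was called higher with age. Of all genes tested 23.2% and 20.1% were called lower. On both FPKM scales DUSP1 and ZBTB16 were also called lower in Hb than in Ha, and NFKBIA lower in Lb than in La. The median log2 fold changes were -0.54 and -0.34, beside -0.02 and 0.01 over all genes. TSC22D3, also known as GILZ, had the highest mean FPKM of the list, with 97.97, 80 and 91.04 FPKM in Ha and 112.37, 119.45 and 114.94 in La. At 120 days it had 14.5, 9.73 and 4.71 FPKM in Hb and 19.37, 27.64 and 16.02 in Lb. All 30-day libraries were thus above all 120-day libraries, with log2 fold changes of -2.73 in HZ (SE 0.39, edgeR adjusted p = 0.000639) and -2.145 in LC (SE 0.21, edgeR adjusted p = 3.45e-05). Between breeds edgeR called 0 of 10 at either age, against 7.62% of all genes at 30 days and 3.85% at 120 days. At an unadjusted p under 0.05 there were 3 at each age, and DESeq2 called 0. TAT and PCK1, induced mainly in liver, had at most 4 estimated counts in any library and were not tested. For MT2A, which is not in the table by symbol, MT-2B was matched by its description after its values were seen. It rose in LC by a log2 fold change of 3.02 (SE 0.44, edgeR adjusted p = 0.000339) and its libraries ranged from 2.07 to 26.4 FPKM in HZ, with overlap between the ages, and it was called in HZ without Ha replicate 2.

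Of the genes of the mineralocorticoid response, ATP1B1, a subunit of the sodium pump, was the only 1 of 7 tested called in Ha vs Hb, against 51.4% of all genes in either direction. It had 63.89, 56.2 and 67.62 FPKM in Ha, 14.02, 22.91 and 17.14 in Hb, 16.48, 32.09 and 31.93 in La, and 20.31, 22.66 and 23.34 in Lb. The Ha libraries stood above all others and the rest overlapped, as with LOC110260194 at 30 days. It was lower in Hb by a log2 fold change of -1.32 (SE 0.16, edgeR adjusted p = 0.000291) and lower in La by -1.195 (SE 0.23, edgeR adjusted p = 0.0114), a call lost without La replicate 1. In La vs Lb edgeR called 0 of 8 (47.6% of all genes), with 2 at an unadjusted p under 0.05 and 0 by DESeq2, and in Hb vs Lb 0 of 7 (3.85% of all genes), with 0 at an unadjusted p under 0.05 and 0 by DESeq2. The sodium channel subunits were near the detection limit, with SCNN1G at 0 counts in all 3 Hb libraries and means of at most 0.33 FPKM for SCNN1A and SCNN1B in any group.

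Among the other steroid receptors, 3 of 4 tested were called lower in Hb than in Ha and 3 of 4 lower in Lb than in La, against 23.2% and 20.1% of all genes. The LC count dropped to 1 of 4 with DESeq2, with the RLE size factors, without La replicate 3 and without Lb replicate 1. Between breeds edgeR called 0 of 4 at 30 days and 0 of 4 at 120 days, against 7.62% and 3.85% of all genes. At an unadjusted p under 0.05 there were 2 and 1, and DESeq2 called 0 and 0. Of the 4 tested genes of steroid clearance and export, 2 were called lower in Hb than in Ha and 1 lower in Lb than in La, against the same shares. Of the former 2, SRD5A2 kept its call in 4 of 13 alternatives and lost it without any of Ha replicates 1, 2 and 3 and Hb replicates 1 and 2. ABCB1, an exporter that carries glucocorticoids among its substrates, fell by 3.07 in HZ (SE 0.21, edgeR adjusted p = 1.87e-05) and by 1.98 in LC (SE 0.16, edgeR adjusted p = 9.95e-06) on the log2 scale, from means of 19.7 and 17.9 FPKM at 30 days. AKR1D1, a steroid 5-beta-reductase, was higher in La than in Ha by a log2 fold change of 1.095 (SE 0.22, edgeR adjusted p = 0.013), at means of 0.46 and 0.97 FPKM, and the call was lost without La replicate 3 and on both FPKM scales. In Hb vs Lb edgeR called 0 of 4 genes of clearance and export (3.85% of all genes), with 1 at an unadjusted p under 0.05 and 0 by DESeq2.

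The genes around the members were looked up by position in the reference table of Sscrofa11.1. CYP21A2 overlaps TNXB by 492 bases and lies 3077 bases from C4A, a complement gene. C4A had means of 602.2 FPKM in Ha, 52.79 in Hb, 298.5 in La and 118.3 in Lb, and so the same order of group means as CYP21A2. It fell with age by 3.04 in HZ (SE 0.21, edgeR adjusted p = 2.29e-05) and by 1.03 in LC (SE 0.17, edgeR adjusted p = 0.00081) on the log2 scale, with an interaction of 1.99 (SE 0.27, edgeR adjusted p = 0.00365). The LC call was lost without La replicate 3 and without Lb replicate 1. TNXB had log2 fold changes of -0.71 in HZ and 0.30 in LC, and neither was called, although it was called lower in HZ on both FPKM scales. ATP6V0D1 lies 923 bases from HSD11B2 and had a log2 fold change of -0.88 in Ha vs Hb, where HSD11B2 had -4.39. In that comparison ATP6V0D1 was not called, except on both FPKM scales and without Ha replicate 3. It was called lower in La than in Ha, at -1.104 (edgeR adjusted p = 0.00783), a call lost without Ha replicate 2. There HSD11B2 had -0.35 and was not called. C9H1orf74 overlaps HSD11B1 by 20310 bases, with log2 fold changes of -0.59 in HZ and -0.07 in LC that were not called. TRAF3IP3 and G0S2 lie 17241 and 8668 bases from HSD11B1. Both were called lower in Hb than in Ha, at -2.11 and -1.39 (edgeR adjusted p = 0.000259 and 0.0248). In LC they had -1.855 and -0.94, and of these TRAF3IP3 was called. ARHGAP10 lies 5948 bases from NR3C2 and was not called, at -0.60 in HZ and 0.26 in LC. Within NR3C1 lies LOC110259145, at 0 counts in every library. The strand on which reads were counted is not given in the sources used here, so reads in these overlaps may be shared, and the values of CYP21A2 and HSD11B1 are uncertain to that extent.

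Of 10706 lncRNA transcripts, 9282 had a position in the reference table and 1424 in the deposited assembly. Only NR3C2 had any within 10 kb, namely 3 transcripts of LOC110261980 that overlap it by 1088 bases. Their highest estimated count in a library was 3.3, so none passed the filter and none was tested.

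Genes whose log2 CPM followed a member most closely over the 12 libraries were found among 16641 genes with a symbol. Since all 12 libraries share the ages and breeds, a high r can come from the group means alone, and r over the 6 libraries of each age is given beside it as a description. The libraries of an age still hold both breeds, so a high r within an age can come from the breed means. For CYP21A2 the closest were LOC110260568 (Pearson's r = 0.974), HECTD3 (0.973) and TST (0.969), with r of at least 0.871 over the 6 libraries of 30 days and at least 0.922 over the 6 of 120 days. In all, 340 genes had an r over 0.9 with CYP21A2. LOC110260568 was near the floor, with at most 35.16 estimated counts in a library and 6, 2 and 2 in Hb. TST, a mitochondrial sulfurtransferase, had 107 FPKM in Ha, 5.03 in Hb, 42.2 in La and 14.7 in Lb on average, the order of CYP21A2, and was called lower in La than in Ha (log2 fold change -1.31, SE 0.15, edgeR adjusted p = 0.00188), a call lost when all 12 libraries were fitted together.

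For HSD11B2 the closest were MXD4 (0.977), FSTL1 (0.975) and COL4A5 (0.974), and 251 genes had an r over 0.9 with it. Within 120 days r was 0.974, 0.982 and 0.975, and within 30 days 0.609, -0.088 and 0.174, so FSTL1 and COL4A5 did not follow it among the young libraries. FSTL1, a secreted glycoprotein of stromal cells, was higher in Lb than in Hb by 2.285 on the log2 scale (SE 0.39, edgeR adjusted p = 0.0231), a call lost without any of Hb replicate 3 and Lb replicates 1, 2 and 3. For NR3C1 they were KLF12 (0.993), RNF217 (0.990) and ANTXR1 (0.989), with r of 0.992, 0.954 and 0.806 within 30 days and 0.799, 0.329 and 0.747 within 120 days, and 2132 genes had an r over 0.9 with it. For NR3C2 they were MARS2 (0.983), RGS6 (0.977) and IRF2BP2 (0.976), with r of -0.017, 0.48 and -0.447 within 30 days, where NR3C2 hardly varied, and 0.965, 0.94 and 0.988 within 120 days. An r over 0.9 with NR3C2 was found for 363 genes. For HSD11B1 they were LOC110261288 (0.923), ADAMTSL4 (0.919) and TOMM20 (0.918), with r of 0.893, 0.969 and 0.937 within 30 days and 0.963, 0.87 and 0.94 within 120 days, and 6 genes had an r over 0.9 with it. Of these 15 genes, ADAMTSL4 was also among the closest 3 by Spearman's rho.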

How the data were processed

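Testis RNA of 12 boars was sequenced from strand-specific libraries depleted of ribosomal RNA. The authors filtered reads with fastp 0.18.0, removed ribosomal reads with Bowtie2 2.2.8, mapped to Sscrofa11.1 with HISAT2 2.1.0 and assembled transcripts with StringTie 1.3.4, versions as in the submitters' processing notes. In the authors' tables every coding gene and lncRNA transcript has an estimated count and an FPKM value per library. Estimated counts as deposited carry no normalization and are not all whole. The deposited FPKM values are scaled by gene length and mapped fragments. The FPKM values are credited to StringTie, while no source used here names what produced the counts. Group and replicate came from sample titles, and 0 columns were left unmatched.

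Estimated counts were rounded, filtered with filterByExpr (minimum count 10), scaled by TMM and fitted in R 4.3.3 with edgeR 4.0.16 (quasi-likelihood) on the 6 libraries of a comparison, or on all 12 with breed, age and their interaction. The scripts were tested on simulated data. The standard error is the absolute log2 fold change over the square root of F. CPM use TMM over 12 libraries. Library totals lie between 17165519 and 23758931 counts, and intervals cover the spread between libraries. Labels call the samples biological replicates, and p values measure only the spread between them.

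Named genes are the members in every library, and from each fixed list the called genes with the largest change, the genes with the highest mean FPKM and those at or under 3 counts in a group. For each member they also include the 3 genes with the highest r, some of the overlapping and nearest genes, and lncRNAs within 10 kb. Other genes named, such as FKBP4, FKBP5, H6PD, NFKBIA, CEBPD and AKR1D1, and the matches by description were picked with their values in view. The members and lists were chosen with earlier results of these data known. Alternatives were DESeq2 1.42.0, RLE size factors, no filter, all 12 libraries in one fit, limma 3.58.1 on log2(FPKM + 1) and log2(FPKM + 0.1), a replicate block, and leaving out each library. Figures were drawn with matplotlib.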

Additional observations from a re-analysis of the deposited data

Results flagged for a closer look

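The change with age differed between HZ and LC for several genes, by edgeR's quasi-likelihood test of the interaction of breed and age over 12 libraries (log2 scale, positive where LC lost less or gained more). Among the members the interaction was 5.60 for CYP21A2 (SE 1.26, adjusted p = 0.0255) and 4.06 for HSD11B2 (SE 0.69, adjusted p = 0.00914). It was 6.12 for LOC110260194, described as cytochrome P450 11B1 (SE 1.12, adjusted p = 0.0118). In the lists it was 1.34 for ATP1B1 and 1.08 for ABCB1, and beside CYP21A2 on chromosome 7 it was 1.99 for C4A. Of the genes that followed members most closely it was 2.67 for TST, 1.0 for MXD4, 2.19 for FSTL1 and 1.44 for COL4A5. Of the most abundant cell type markers it was 3.19 for COL3A1 and -1.83 for PRM1. Genes that followed HSD11B2 or CYP21A2 were chosen for that likeness, so their interactions are not separate evidence. Of the 16 alternatives run for the interaction, the call held in 16 for HSD11B2, LOC110260194, C4A and FSTL1, 12 for ATP1B1, 10 for CYP21A2, 9 for ABCB1, 8 for MXD4, 7 for TST and COL3A1, and 6 for COL4A5 and PRM1.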

How the results depend on the processing

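Of 340 member log2 fold changes under an alternative, 298 kept direction and side of the thresholds, 13 no longer passed, 10 newly passed and 19 changed sign. Of those that changed sign, 0 had been called with the main settings. Unless stated, the cause was not tested.

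On log2(FPKM + 1) and log2(FPKM + 0.1) with limma, HSD11B1 in Ha vs Hb changed sign (-0.34 and -0.46), as did NR3C2 in Ha vs La (-0.01 and -0.01) and Hb vs Lb (0.05 and 0.08). NR3C2 was called in Ha vs Hb (-1.12 and -1.38) and in La vs Lb (-1.05 and -1.29), which made 2 members called in La vs Lb on either scale. HSD11B1 in Ha vs La was 0.90 on log2(FPKM + 1) and not called, leaving 1 member, and 507 genes were called in place of 1192. Adding 1 to small FPKM values shrinks their differences by construction.

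DESeq2 called CYP21A2 in Hb vs Lb (3.80), so 2 members, with 1224 genes in place of 628, and called 1378 interactions in place of 890. With all 12 libraries in one fit, CYP21A2 lost its call in Ha vs La (-1.85, leaving 1 member) and gained it in Hb vs Lb (3.75, making 2), where 1258 genes were called.

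With libraries left out 1 at a time, these results changed sign or call at least once. In Ha vs Hb, HSD11B1 ran from -0.32 to 0.17 and NR3C2 from -1.03 to -0.61. In La vs Lb, CYP21A2 ran from -2.48 to -0.27 and NR3C2 from -1.10 to -0.71, with 1 to 2 members called. In Ha vs La, HSD11B1 ran from 1.0 to 1.27, HSD11B2 from -0.58 to 0.04 and NR3C2 from -0.01 to 0.04, with 1 to 2 members called. In Hb vs Lb, HSD11B2 ran from 3.28 to 4.54 and NR3C2 from -0.30 to 0.17, with 0 to 1 members and 97 to 1029 genes called. In the interaction, CYP21A2 ran from 3.93 to 7.35, NR3C1 from -0.23 to 0.04 and NR3C2 from -0.30 to 0.12, with 1 to 2 members and 437 to 1242 genes called. Fewer libraries also leave less power.

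With a replicate block, HSD11B1 in Ha vs Hb was -0.01. HSD11B2 in Hb vs Lb (3.87) and CYP21A2 in the interaction (5.43) were not called, so 0 and 1 members were, and 154 genes were called in Hb vs Lb. Libraries of the same number had an r between -0.022 and 0.053 after the group means were removed. In Ha vs Hb 0.053 was the highest of all pairs, and elsewhere pairs of other numbers reached higher, so the numbers do not pair samples.

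The alternatives for lncRNAs gave no values, since no lncRNA near a member passed the filter. Leaving out libraries for the lists and all tests of LOC110260194 were added after the data were seen. With 3 libraries per group, whole tissue and 2 ages, cell composition and expression per cell are not separated, and counts of CYP21A2 in Hb are low. The animals' hormone levels were not analysed here.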
